A study of Mus musculus with 12 samples.

Results

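The interferon response genes described here are 41 genes that cells switch on when an interferon reaches them. They were chosen by name as well-known interferon-stimulated genes, by a rule that uses no measured value, but with earlier results of these data known. They leave out the interferon regulatory factors, the Ifitm genes and the MHC genes. All 41 were found among the 23378 genes that could be followed through the 12 count files. The files hold RNA-seq counts of 2 bone marrow populations from C57BL/6 mice. Enhancer-null mice lack both copies of the enhancer that the labels call Cebpa +42kb, and wild-type mice carry it. Cebpa is the gene of a transcription factor that commits progenitors to granulocytes and monocytes. Common myeloid progenitors (CMP) and LSK cells, the lineage-negative, Sca-1-positive and Kit-positive fraction that contains the stem cells, were taken from both genotypes, with 3 libraries in each of the 4 groups. The labels name replicates 1, 2 and 7 in enhancer-null CMP, 1, 6 and 8 in wild-type CMP, 1, 2 and 7 in enhancer-null LSK and 1, 6 and 8 in wild-type LSK. They give no age, sex, treatment or inducible allele, and they do not say that replicates came from separate animals, so p-values measure the spread between these libraries.

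Interferons are secreted proteins that bind paired receptor chains, activate kinases of the Jak family, and through them transcription factors that include Stat2 and Irf9. These bind interferon response elements in the promoters of the target genes, whose products sense foreign RNA, degrade it, block its translation or damage the vacuoles in which microbes grow. In bone marrow, interferon signalling is known to push dormant stem cells into division, and stem cells of several tissues are known to express a subset of the target genes without added interferon.

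Counts assigned to genes came to between 6170491 and 49149674 per library. Cebpa had 0 to 3 counts in the enhancer-null CMP libraries and 270 to 544 in the wild-type CMP libraries, and 0 to 15 in the enhancer-null LSK libraries and 39 to 226 in the wild-type LSK libraries. By the counts of Xist and Y-linked genes, replicates 1 and 2 of the enhancer-null mice and replicate 1 of the wild type were male in both cell types and the rest female, so sex was not balanced between the genotypes. Among genes that averaged 10 CPM or more (counts per library scaled to equal size), the share a library missed altogether was 3.57% and 1.56% in replicates 1 and 7 of enhancer-null CMP, 1.82% in replicate 6 of wild-type LSK and at most 0.871% in the other 9 libraries. The summed level of 6 monocyte and macrophage markers was 18.1 to 77.2 CPM in enhancer-null CMP and 920 to 1147 CPM in wild-type CMP, and that of 5 stem cell markers was 246 to 278 CPM in enhancer-null LSK and 558 to 722 CPM in wild-type LSK. Of the stem cell markers, Hlf moved that sum most (63.9 against 438 CPM), while Ly6a (178 against 153 CPM) and Slamf1 (11 against 1.03 CPM) had the higher mean in enhancer-null LSK. The Slamf1 mean rested mostly on replicate 1, at 28.2 CPM, with 2.41 and 2.52 CPM in replicates 2 and 7. In bulk RNA, fewer cells of a type and less RNA per cell cannot be told apart.

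The promoters are shown first because interferon is known to act through elements in the promoters of its target genes. RefSeq windows of assembly GRCm38.p6, which run from 250 bases before to 50 bases after a gene's start, were matched to 31 of the 41 members. Usp18, Dhx58, Zbp1, Oas2, Mx1, Mx2, Rtp4, Iigp1, Parp9 and Parp14 had no window in the table. The letters GAAANNGAA, the core of the interferon response element, were searched on both strands. They stood in a window of 19 of the 31 members (61.3%) and in 2638 of all 27025 genes with a window (9.76%). TTCNNNGAA, the core of the gamma activated site, stood in 9 of the 31 members (29.0%) and in 9.55% of all genes. A match is a description of the letters and not evidence that a factor was bound. Windows are printed for 4 members, namely 3 of the genes that were lower in wild-type CMP than in wild-type LSK and Gbp3, whose libraries did not overlap between the genotypes in either cell type. Capitals mark GAAANNGAA on either strand. The windows are chr4:40239776-40240075 on the minus strand for Ddx58, chr5:114896684-114896983 on the plus strand for Oasl2, chr5:120777610-120777909 on the minus strand for Oas3, and chr3:142559794-142560093 on the plus strand for Gbp3.
Ddx58: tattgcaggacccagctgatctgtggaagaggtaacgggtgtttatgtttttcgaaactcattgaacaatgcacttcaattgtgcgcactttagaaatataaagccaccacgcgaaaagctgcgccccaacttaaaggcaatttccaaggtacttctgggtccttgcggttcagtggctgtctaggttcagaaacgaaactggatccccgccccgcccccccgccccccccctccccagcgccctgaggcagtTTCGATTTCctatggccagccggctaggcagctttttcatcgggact
Oasl2: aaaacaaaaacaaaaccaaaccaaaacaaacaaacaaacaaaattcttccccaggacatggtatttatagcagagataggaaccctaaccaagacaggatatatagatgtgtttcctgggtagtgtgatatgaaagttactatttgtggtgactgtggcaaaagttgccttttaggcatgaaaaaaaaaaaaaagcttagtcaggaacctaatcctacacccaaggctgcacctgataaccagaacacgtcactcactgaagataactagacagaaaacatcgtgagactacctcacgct
Oas3: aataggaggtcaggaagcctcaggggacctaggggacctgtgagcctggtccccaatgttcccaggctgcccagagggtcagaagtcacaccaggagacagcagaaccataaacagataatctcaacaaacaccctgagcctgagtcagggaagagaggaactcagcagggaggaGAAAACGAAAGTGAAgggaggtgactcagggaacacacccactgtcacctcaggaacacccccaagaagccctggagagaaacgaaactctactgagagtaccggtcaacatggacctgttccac
Gbp3: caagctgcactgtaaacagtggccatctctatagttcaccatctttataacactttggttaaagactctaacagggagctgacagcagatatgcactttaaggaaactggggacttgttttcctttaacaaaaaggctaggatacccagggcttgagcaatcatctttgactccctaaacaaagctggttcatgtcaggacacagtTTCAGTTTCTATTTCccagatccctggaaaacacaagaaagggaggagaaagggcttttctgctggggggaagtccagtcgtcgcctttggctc

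With the first base of the gene counted as 0, the match of Ddx58 began at 3, inside the transcribed part. Oas3 held a pair of overlapping matches that began at -75 and -69, and Gbp3 a pair that began at -44 and -38. The Oasl2 window held none. Other members with more than 1 match were Isg15, Ifit1 and Ifit3 with 3 each and Ifih1, Eif2ak2, Oas1a, Bst2 and Irgm1 with 2 each, and Trim30a had 1 match in each of 2 windows. The Bst2, Eif2ak2, Oas1a, Gbp7 and Igtp windows held both kinds of letters.

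**Figure D1:**
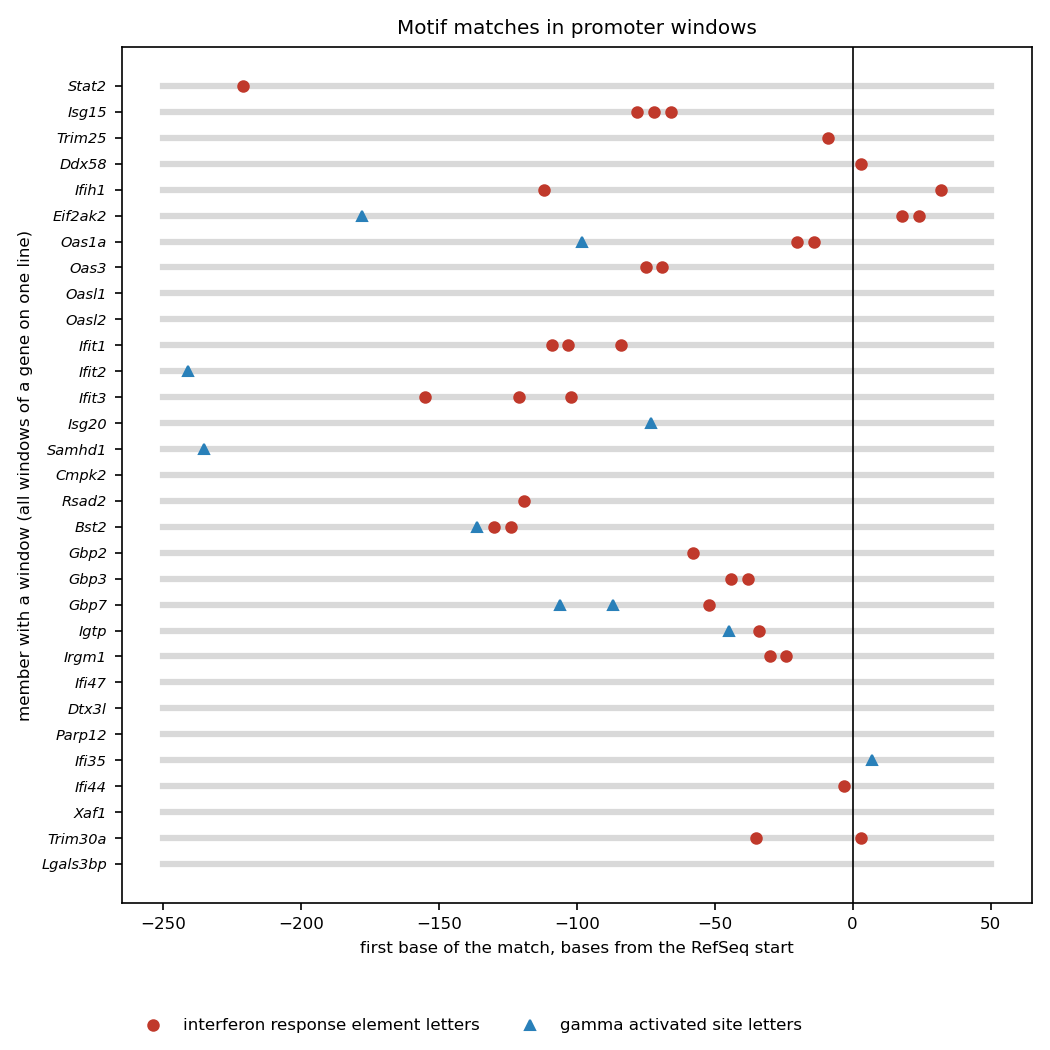
Positions of the matches to the interferon response element letters (circles) and the gamma activated site letters (triangles) in the promoter windows of 31 members, in bases from the RefSeq start (vertical line). Each grey line is a window from 250 bases before to 50 bases after the start, and 19 of the 31 members carry at least 1 circle.

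Levels were compared between genes as CPM per kb of exon, averaged over the 12 libraries. Bst2, which encodes tetherin, a membrane protein that holds budding viruses on the cell, was highest at 76.9 CPM per kb. It was followed by Lgals3bp, a secreted galectin-binding protein, at 68.1, and the GTPase gene Ifi47 at 49.2 CPM per kb. Ifit3, a gene of the IFIT family, was lowest at 0.976 CPM per kb, and Zbp1, a sensor of Z-form nucleic acids, stood at 1.44.

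Summed over the 41 members, the level was 1635, 1831 and 1973 CPM in enhancer-null CMP and 1355, 1545 and 1581 CPM in wild-type CMP. It was 2348, 2634 and 2736 CPM in enhancer-null LSK and 2649, 3860 and 2910 CPM in wild-type LSK. The 3 enhancer-null CMP libraries lay above the 3 wild-type CMP libraries, all 6 CMP libraries lay below all 6 LSK libraries, and in LSK the genotypes overlapped. Of the 41 members, 28 had their highest group mean in wild-type LSK, 10 in enhancer-null LSK, 3 in enhancer-null CMP and 0 in wild-type CMP. The lowest mean was in wild-type CMP for 26 members and in enhancer-null CMP for 12. Single libraries weighed on these sums. Wild-type LSK replicate 6 was the highest of the 12 libraries for 21 members, and without it the wild-type LSK sums were 2649 and 2910 CPM. Enhancer-null CMP replicates 1 and 7 had 8 and 6 members at 3 counts or fewer, where enhancer-null CMP replicate 2 had 0.

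**Figure D2:**
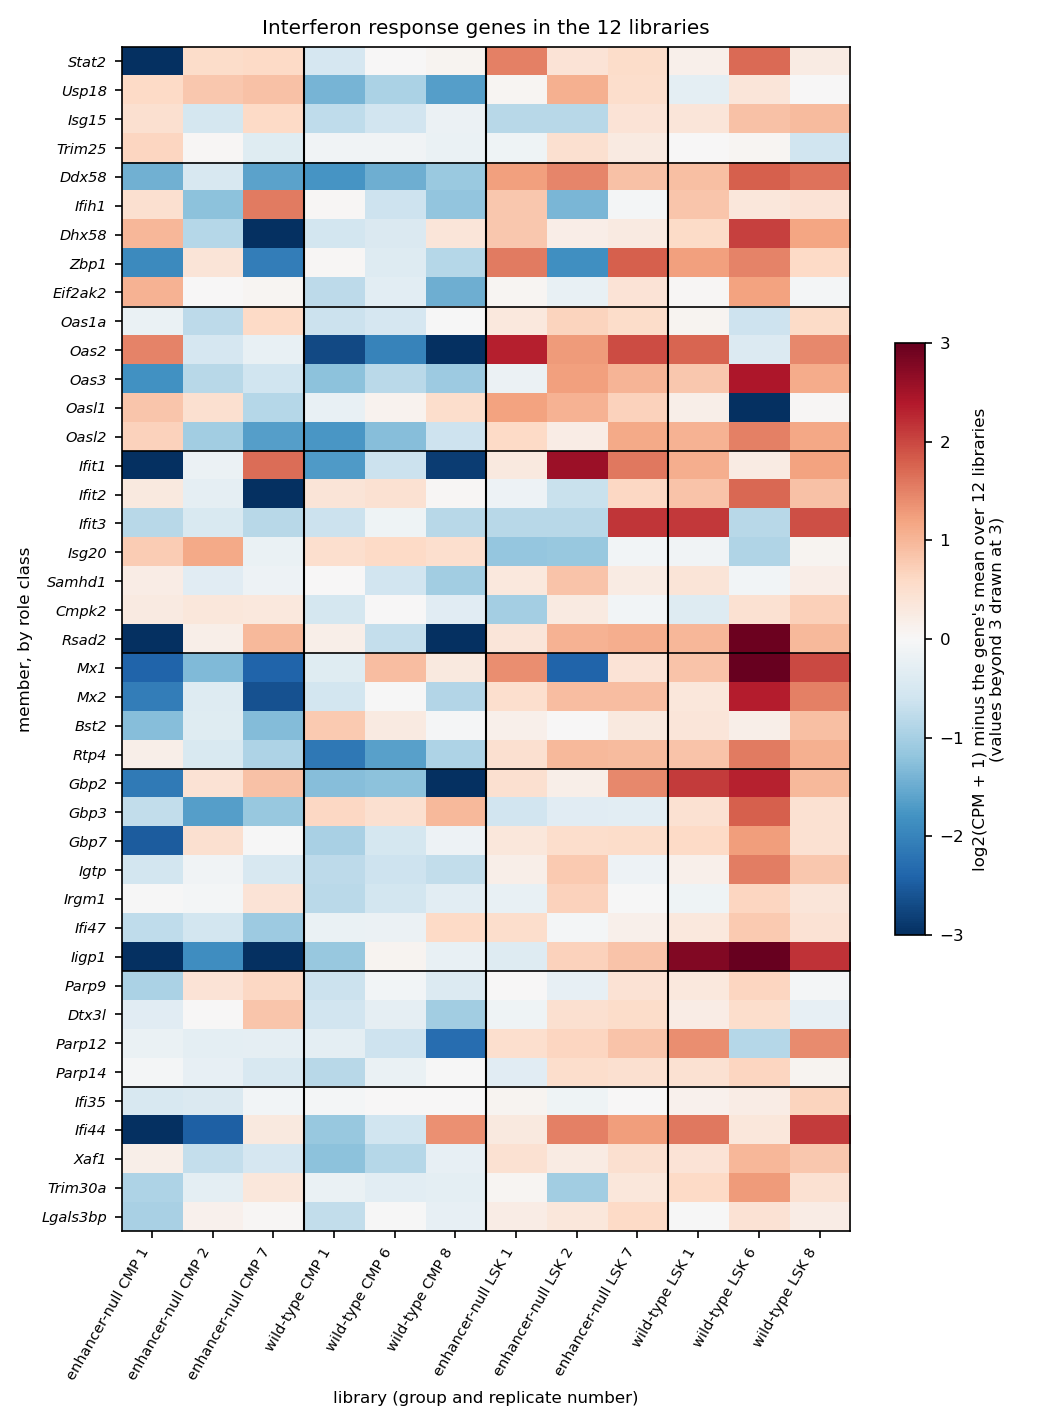
Level of each of the 41 members (rows, by role class) in the 12 libraries (columns), as log2(CPM + 1) minus the gene's mean over the 12 libraries. Red cells crowd in the LSK libraries, above all wild-type LSK replicate 6, and dark blue cells in enhancer-null CMP replicates 1 and 7 are members with few or no counts.

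The first comparison set enhancer-null against wild-type mice in CMP, a stage on the way to granulocytes and monocytes. Of the 41 members, 40 were tested and Ifit3 was too low. Usp18 rose and 39 did not pass the test, a count of 1 of 40 where 0.58% of all 11719 tested genes passed and 0.469% passed as higher (quasi-likelihood test of edgeR, Benjamini-Hochberg adjustment over all tested genes, threshold 0.05). The log2 fold change was positive in 29 of the 40 members and in 48.8% of all tested genes, with a median of 0.33 in the members and -0.02 in all genes. The median was 0.20 without enhancer-null replicate 2 and also 0.20 without wild-type replicate 1, and 24 members were positive without each of these in turn. The direction was the same in all 12 alternatives for 25 of the 40 members. The libraries of the genotypes did not overlap, with enhancer-null CMP higher, in 7 of the 40 members (17.5%, against 10.8% of all genes). Enhancer-null CMP was lower without overlap in 6 of the 40 (15.0%, against 12.9% of all genes), a share near that of all genes. At an unadjusted p under 0.05, 7 members were higher and 3 lower, where 7.53% of all genes were higher and 5.07% lower.

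Among the signalling genes, Usp18 encodes a protease that removes Isg15 from proteins and that also blocks the type I interferon receptor, a negative feedback. Usp18 lies on chr6:121245906-121270917 on the plus strand (mm10), and GENCODE places exons of Gm44148 on the opposite strand of it. It had 78.3, 90.1 and 95.1 CPM in enhancer-null CMP and 18.9, 26.2 and 15.6 CPM in wild-type CMP. The 3 enhancer-null libraries were close together and each was well above all 3 wild-type libraries, which gave a fold change of 4.37 (log2 fold change 2.13, SE 0.33, adjusted p = 0.0459). The size was stable but the call was not, since it was made in 6 of 12 alternatives, over which the adjusted p ran from 1.2e-06 to 0.231. The adjusted p was 0.105 with sex as a covariate. Leaving out enhancer-null replicate 2 or 7 gave 0.0841 or 0.115, and leaving out wild-type replicate 1, 6 or 8 gave 0.231, 0.166 or 0.213.

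The partners of Usp18 did not pass. Isg15, the ubiquitin-like protein that Usp18 removes, had 17.1, 7.88 and 18.4 CPM in enhancer-null CMP and 6.54, 7.63 and 10.4 CPM in wild-type CMP, with overlap (adjusted p = 0.79). Trim25, a ubiquitin ligase that acts on the RNA sensor RIG-I and the member of this class with the highest CPM, had 115, 75 and 56.7 CPM in enhancer-null CMP and 68.2, 67.8 and 64.2 CPM in wild-type CMP (adjusted p = 0.791), and its log2 fold change was -0.03 without enhancer-null replicate 1 and 0.31 with it. Stat2, part of the factor that binds the response element, was at 0.115, 63.3 and 65.4 CPM in enhancer-null CMP, with 1 count in replicate 1, and at 29.7, 42.9 and 45.1 CPM in wild-type CMP (adjusted p = 0.982). Its log2 fold change of 0.14 was negative without enhancer-null replicate 2 (-0.24) or 7 (-0.30) or wild-type replicate 1 (-0.05).

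Of the 5 RNA and nucleic acid sensors, 0 passed the test, 1 (Eif2ak2) had an unadjusted p under 0.05, and 3 had a positive log2 fold change. Eif2ak2 encodes PKR, a kinase that stops translation when it meets double-stranded RNA. It had 107, 51.9 and 53.6 CPM in enhancer-null CMP and 29.2, 40.9 and 18 CPM in wild-type CMP. The groups did not overlap, and replicate 1 was the highest enhancer-null library (log2 fold change 1.28, SE 0.45, adjusted p = 0.3). Ddx58, which encodes RIG-I, had 17.2, 33.9 and 15 CPM in enhancer-null CMP and 13.3, 16.7 and 21.8 CPM in wild-type CMP, with overlap (adjusted p = 0.888), and its log2 fold change was -0.09 without enhancer-null replicate 2 and 0.36 with it.

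All 5 oligoadenylate synthetase genes, whose products make the messenger that activates RNase L or are relatives of such enzymes, had positive log2 fold changes in CMP and 0 passed. The values of Oas2 were 57.8, 13.8 and 16.9 CPM in enhancer-null CMP and 2.19, 4.18 and 0 CPM in wild-type CMP (log2 fold change 3.80, SE 1.57, adjusted p = 0.38). The groups did not overlap, and replicate 1 was well above the other enhancer-null libraries. Oasl2 was at 76.6, 22.4 and 14.3 CPM in enhancer-null CMP and 13.4, 18.9 and 30.01 CPM in wild-type CMP (adjusted p = 0.735). Oas3 was at 3.58, 7.98 and 9.66 CPM in enhancer-null CMP and 5.84, 8.14 and 6.53 CPM in wild-type CMP (adjusted p = 0.99), and in both genes the groups overlapped. The direction of both rested on single libraries. Oasl2 had a log2 fold change of -0.19 without enhancer-null replicate 1 and 0.86 with it, and that of Oas3, 0.06, was negative without enhancer-null replicate 2 (-0.03) or 7 (-0.24) or wild-type replicate 1 (-0.07).

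Among the IFIT and nucleotide or RNA effectors, 5 of 6 tested members had positive log2 fold changes and 0 passed. Cmpk2, a mitochondrial nucleotide kinase and the member of this class with the highest CPM, had 99.3, 106 and 102 CPM in enhancer-null CMP and 56.9, 83.4 and 65.3 CPM in wild-type CMP. All 3 enhancer-null libraries were above the wild type (log2 fold change 0.59, SE 0.25, adjusted p = 0.39). The negative one was Ifit2, an RNA-binding effector, at 23.3, 15.4 and 0.121 CPM in enhancer-null CMP and 25.1, 26.5 and 19.3 CPM in wild-type CMP, where enhancer-null replicate 7 was nearly empty (adjusted p = 0.868). Ifit1, its neighbour on chromosome 19, was spread from 0.115 to 33.7 CPM over the enhancer-null libraries.

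The Mx and membrane restriction factors leaned the other way, with 3 of 4 log2 fold changes negative and 0 members past the test. Bst2 had 25.7, 48.7 and 25 CPM in enhancer-null CMP and 111, 76.1 and 61.8 CPM in wild-type CMP. All 3 enhancer-null libraries were lower (log2 fold change -1.31, SE 0.39, adjusted p = 0.24). Bst2 also marks plasmacytoid dendritic cells. Of 4 other markers of that cell type, Ccr9 was lower without overlap as well, at 0.231, 0.049 and 0 CPM in enhancer-null CMP and 3.46, 4.01 and 2.46 CPM in wild-type CMP, and Siglech and Cd300c had the higher mean in enhancer-null CMP. For Siglech that mean was replicate 7 alone, at 0, 0 and 20.5 CPM in enhancer-null CMP and 0.984, 3.34 and 0 CPM in wild-type CMP. The broader marker Tcf4 made up most of the summed level of these 4 markers. That sum was 102 to 151 CPM in enhancer-null CMP and 90.2 to 152 CPM in wild-type CMP, and the markers' part in the Bst2 values was not tested. Mx1, a GTPase gene that is known to be disrupted in many inbred strains of mice, was at 0, 1.13 and 0 CPM in enhancer-null CMP and 3.11, 9.03 and 5.56 CPM in wild-type CMP, with 2 enhancer-null libraries at 0 counts (adjusted p = 0.538). Rtp4, a transmembrane protein that helps receptors reach the cell surface, was the exception. It had 74.9, 48.3 and 34.9 CPM in enhancer-null CMP and 14.3, 20.9 and 34.7 CPM in wild-type CMP (log2 fold change 1.18, SE 0.49, adjusted p = 0.388), and the lowest enhancer-null library was just above the highest wild-type one.

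The interferon-inducible GTPases, which attack the vacuoles of intracellular microbes, were split within 1 gene cluster. Gbp7 (chr3:142530342-142550149), Gbp3 (chr3:142560026-142573209) and Gbp2 (chr3:142620602-142638008) lie side by side on the plus strand. Gbp3 had 22.8, 11.7 and 16.9 CPM in enhancer-null CMP and 60.4, 54.7 and 76.2 CPM in wild-type CMP, and all 3 enhancer-null libraries were below all 3 wild-type libraries (log2 fold change -1.89, SE 0.40, adjusted p = 0.103, with 0.0021 by DESeq2 and 0.428 as the ends of its range over 12 alternatives). Gbp2 was at 3.46, 25.1 and 34.7 CPM in enhancer-null CMP and 6.98, 7.3 and 0.0647 CPM in wild-type CMP, with overlap (2.16 on the log2 scale, adjusted p = 0.658), and Gbp7 spread from 17.9 to 148 CPM in enhancer-null CMP. These Gbp genes are close relatives, so reads may have been split between them.

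The immunity-related GTPases were also divided. Irgm1, which mouse stem cells are known to need for self-renewal, had 133, 129 and 180.2 CPM in enhancer-null CMP and 76, 91.2 and 108 CPM in wild-type CMP (log2 fold change 0.69, SE 0.25, adjusted p = 0.307). Ifi47 was at 67.1, 76.8 and 53.3 CPM in enhancer-null CMP and 99.5, 99.97 and 172 CPM in wild-type CMP (log2 fold change -0.91, SE 0.31, adjusted p = 0.29), and GENCODE places exons of Olfr56 over it. Iigp1 was at 0.115, 1.52 and 0.0608 CPM in enhancer-null CMP and 3.21, 8.8 and 6.86 CPM in wild-type CMP (log2 fold change -3.44, SE 1.71, adjusted p = 0.49), with 1 count in each of enhancer-null replicates 1 and 7. In these 3 genes the groups did not overlap, Irgm1 being higher and the others lower in the enhancer-null libraries, and none of them passed the test.

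The 4 PARP and Dtx3l genes, which modify proteins with ADP-ribose or, in Dtx3l, with ubiquitin, all had positive log2 fold changes in CMP and 0 passed. Dtx3l, the member of this class with the highest CPM, had 93.3, 118 and 209 CPM in enhancer-null CMP and 78.8, 97.4 and 56.5 CPM in wild-type CMP, with overlap (log2 fold change 0.87, SE 0.37, adjusted p = 0.388). Its exons overlap those of Parp9 on the opposite strand, and without strand the reads of the pair cannot be told apart. Of the 5 other induced genes, 3 were positive and 0 passed. Ifi35, a cytosolic interferon-induced protein, was at 34.1, 34.9 and 45.3 CPM in enhancer-null CMP and 45.9, 48.4 and 48 CPM in wild-type CMP, lower without overlap by -0.31 on the log2 scale (adjusted p = 0.796). Lgals3bp was at 94.6, 203 and 192 CPM in enhancer-null CMP and 112, 183 and 156 CPM in wild-type CMP (adjusted p = 0.933), and Trim30a, a mouse protein known to restrain Toll-like receptor signalling, at 48.8, 75.2 and 119 CPM in enhancer-null CMP and 81.1, 74.3 and 76 CPM in wild-type CMP (adjusted p = 0.962). Trim30a had a log2 fold change of -0.31 without enhancer-null replicate 7 and 0.08 with it, and that of Lgals3bp, 0.13, was negative without enhancer-null replicate 2 (-0.06) or 7 (-0.01) or wild-type replicate 1 (-0.07).

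**Figure D3:**
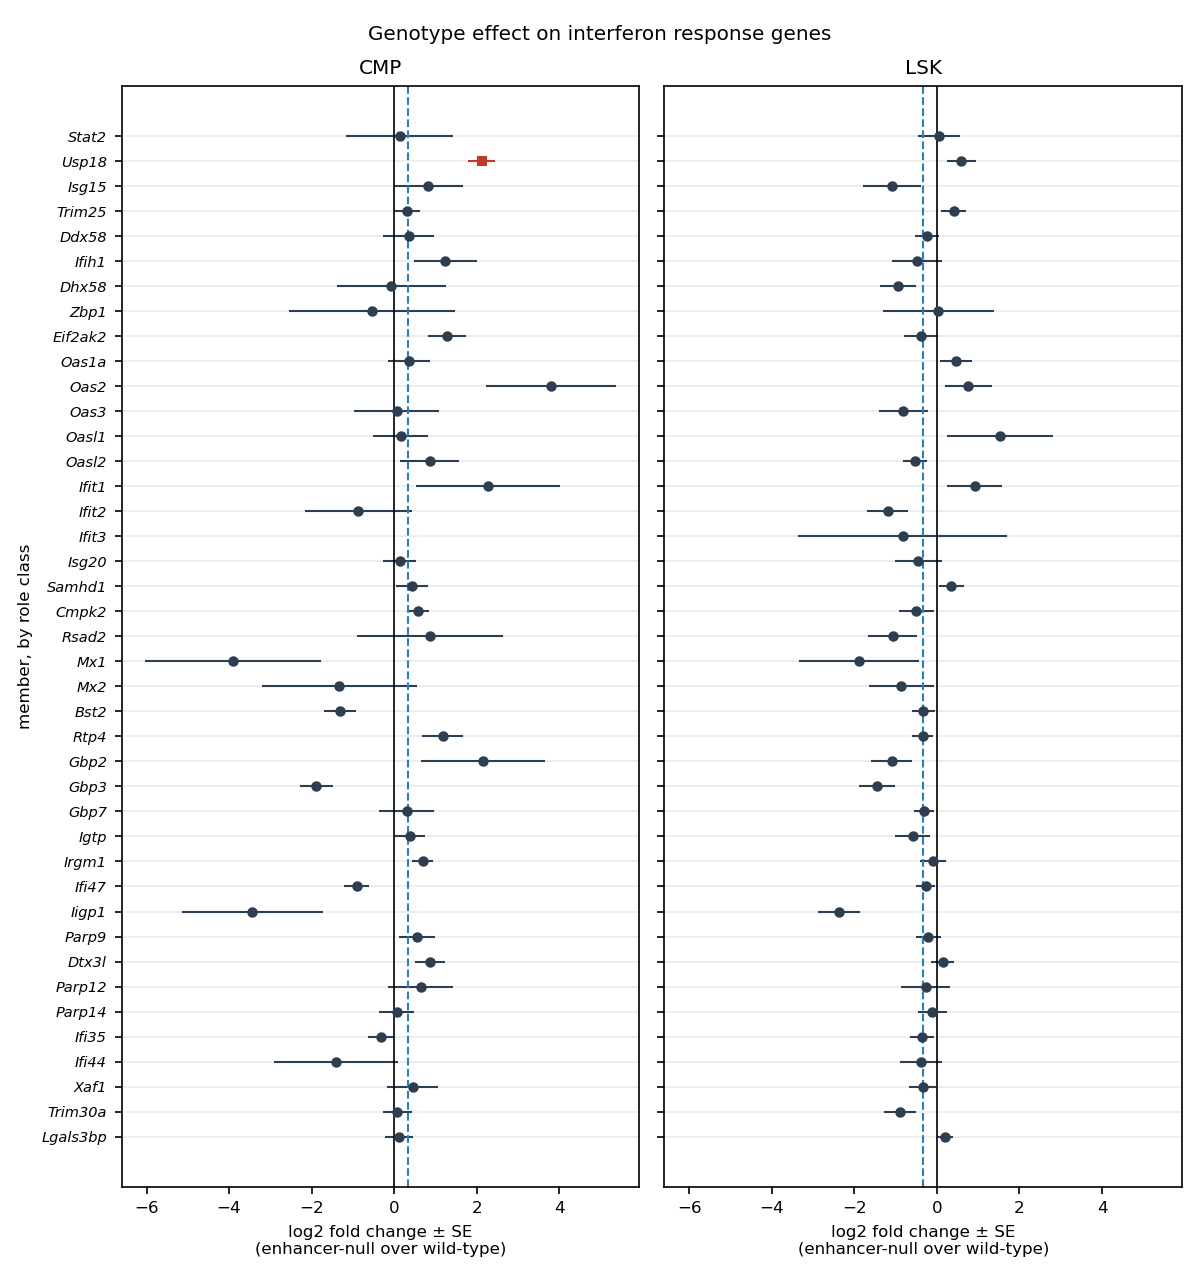
Log2 fold change of enhancer-null over wild-type with its SE for each member in CMP (left) and LSK (right). The red square is Usp18, the only member past the test, and the dashed lines are the medians of the tested members, 0.33 in CMP and -0.34 in LSK.

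The same comparison was made in LSK, upstream of CMP. All 41 members were tested and 0 passed edgeR's test, where 0.103% of all 11617 tested genes passed. At an unadjusted p under 0.05, 0 members were higher and 3 lower (4.05% and 3.86% of all genes). DESeq2 called 1 member, Iigp1, and 269 of all tested genes. The log2 fold change was negative in 30 of the 41 members and in 50.7% of all genes, with a median of -0.34 in the members and -0.01 in all genes. That median depended on wild-type LSK replicate 6, without which it was -0.16 with 27 members negative. The direction was the same in all 12 alternatives for 33 of the 41 members. Enhancer-null LSK was lower without overlap in 5 of the 41 members (12.2%, against 10.4% of all genes), a share near that of all genes, and higher in 1 (2.44%, against 8.64% of all genes).

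The GTPases held the 2 members with the smallest p in LSK. Iigp1 had 6.07, 13.8 and 15.6 CPM in enhancer-null LSK and 62, 84.1 and 40.3 CPM in wild-type LSK. The highest enhancer-null library was well below the lowest wild-type one, and the fitted enhancer-null level was 5.16-fold lower (log2 fold change -2.37, SE 0.51, adjusted p = 0.218). Gbp3 had 25.4, 30.4 and 30.8 CPM in enhancer-null LSK and 53.4, 135 and 53.1 CPM in wild-type LSK, again without overlap (log2 fold change -1.46, SE 0.44, adjusted p = 0.423). All 7 GTPase genes had negative log2 fold changes in LSK, from -2.37 to -0.09, and 0 passed. The smallest of these, that of Irgm1, was positive without enhancer-null LSK replicate 1 (0.09) or wild-type LSK replicate 6 (0.09). Gbp2 was at 26, 20.7 and 51.5 CPM in enhancer-null LSK and 82.3, 95.2 and 37 CPM in wild-type LSK, with overlap (log2 fold change -1.10, SE 0.49, adjusted p = 0.641). Irgm1 was at 116, 217 and 134 CPM in enhancer-null LSK and 122, 211 and 173 CPM in wild-type LSK (adjusted p = 0.962), and Ifi47 at 164, 109.6 and 126 CPM in enhancer-null LSK and 142, 196 and 154 CPM in wild-type LSK (adjusted p = 0.803).

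Ifit2 and Trim30a were also lower without overlap in LSK and did not pass. Ifit2 had 16.8, 11.6 and 29.7 CPM in enhancer-null LSK and 35.2, 65.1 and 35.3 CPM in wild-type LSK (log2 fold change -1.20, SE 0.50, adjusted p = 0.626). Trim30a, which belongs to a family of close mouse paralogues, had 97.4, 44.4 and 119 CPM in enhancer-null LSK and 141, 226 and 128 CPM in wild-type LSK (log2 fold change -0.90, SE 0.39, adjusted p = 0.633). In both genes wild-type replicate 6 was the highest library. Ifi35 was at 50.9, 43.6 and 47.9 CPM in enhancer-null LSK and 52.2, 56.2 and 76.6 CPM in wild-type LSK, a difference of -0.35 on the log2 scale (adjusted p = 0.803).

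Usp18 did not pass in LSK. It had 53.4, 109 and 74.1 CPM in enhancer-null LSK and 41.9, 66.6 and 51.5 CPM in wild-type LSK, and the groups overlapped (log2 fold change 0.59, SE 0.35, adjusted p = 0.718). The signalling class had 3 of 4 log2 fold changes positive, and the exception was Isg15, at 6.22, 6.27 and 16.2 CPM in enhancer-null LSK and 15.5, 22.8 and 23.9 CPM in wild-type LSK (adjusted p = 0.751). Trim25 was at 67, 102 and 89.1 CPM in enhancer-null LSK and 73.8, 76.9 and 48.4 CPM in wild-type LSK (adjusted p = 0.782). Oasl1, an oligoadenylate synthetase relative, was the member that was higher without overlap, at 39.4, 35.5 and 27.4 CPM in enhancer-null LSK and 19.1, 0.0699 and 17 CPM in wild-type LSK, where wild-type replicate 6 had almost none (adjusted p = 0.807).

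The other members described for CMP overlapped between the genotypes in LSK. Ddx58 had 114, 135 and 89.9 CPM in enhancer-null LSK and 90.05, 168 and 149.7 CPM in wild-type LSK (adjusted p = 0.874). Rtp4 had 93.1, 133 and 130 CPM in enhancer-null LSK and 121, 198 and 141 CPM in wild-type LSK (adjusted p = 0.786), and Oasl2 had 71.8, 54.7 and 104 CPM in enhancer-null LSK and 97.4, 136 and 106 CPM in wild-type LSK (adjusted p = 0.697). In Rtp4 and Oasl2 wild-type replicate 6 was the highest library of all 12. Bst2 averaged 71 ± 7.16 CPM in enhancer-null LSK and 90.9 ± 24.9 CPM in wild-type LSK, and Eif2ak2 averaged 55.4 ± 12.7 CPM in enhancer-null LSK and 73.9 ± 40.2 CPM in wild-type LSK (SD, n = 3 each). Cmpk2 averaged 72.7 ± 30.2 CPM in enhancer-null LSK and 105 ± 37.9 CPM in wild-type LSK, Dtx3l 148 ± 35.6 CPM in enhancer-null LSK and 136 ± 35.5 CPM in wild-type LSK, and Lgals3bp 245 ± 34.4 CPM in enhancer-null LSK and 217 ± 33.3 CPM in wild-type LSK (SD, n = 3 each). Oas3 averaged 27.2 ± 12.4 CPM in enhancer-null LSK and 48.6 ± 31.7 CPM in wild-type LSK. The smallest adjusted p among these 6 genes was that of Oas3, at 0.779, and all but Dtx3l and Lgals3bp had the lower mean in enhancer-null LSK. Eif2ak2 had a log2 fold change of -0.39, and 0.13 without wild-type replicate 6, and that of Dtx3l was 0.14, and -0.07 without wild-type replicate 8.

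Gbp3, Iigp1 and Ifi35 were lower without overlap in both cell types, 3 members where 2.43% of all genes tested in both were so, and 0 members were higher in both, where 2.31% of all genes were. Replicate numbers and sexes match between the cell types, which may therefore not be independent. The genotype effect was then compared between the cell types in 1 fit of all 12 libraries. Of 41 members 0 passed edgeR's test, where 0.292% of all 12683 tested genes passed. DESeq2 called 0 members and 191 of all tested genes. At an unadjusted p under 0.05, 5 members had a larger effect in CMP and 0 a smaller one, where 4.54% and 3.1% of all genes did so. The difference was positive in 28 of the 41 members and in 50.6% of all genes. The median difference of the effects was 0.65 on the log2 scale in the members and 0.01 in all genes. It was 0.31 without enhancer-null CMP replicate 2 and 0.40 without wild-type LSK replicate 6. For Usp18 the difference was 1.57 (SE 0.49, adjusted p = 0.363), for Eif2ak2 1.71 (adjusted p = 0.512) and for Rtp4 1.56 (adjusted p = 0.432). For Gbp3 it was -0.39 (SE 0.60, adjusted p = 0.963).

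**Figure D4:**
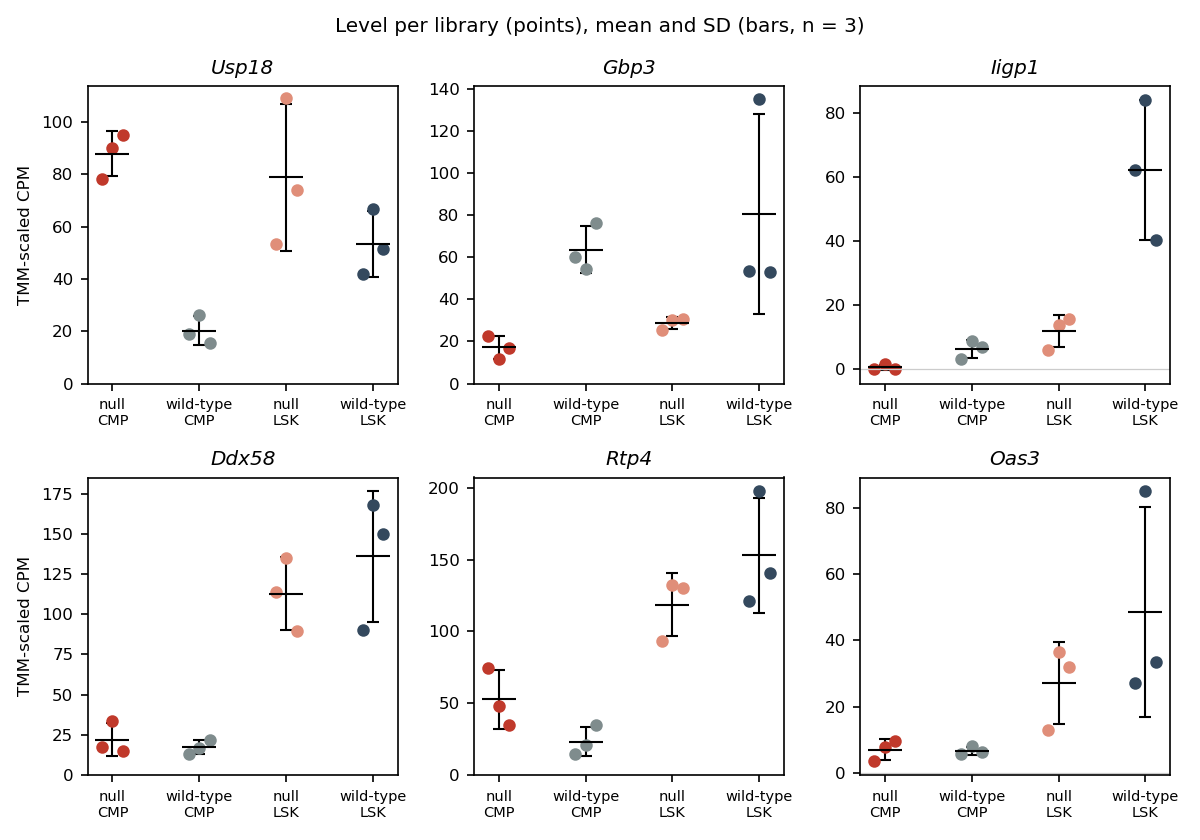
Level in CPM of Usp18, Gbp3, Iigp1, Ddx58, Rtp4 and Oas3 in each library (points), with the mean and SD of each group (bars, n = 3). Usp18 is 78.3 to 95.1 CPM in enhancer-null CMP and 15.6 to 26.2 CPM in wild-type CMP, Gbp3 and Iigp1 are lower in the enhancer-null group of both cell types, and Ddx58, Rtp4 and Oas3 are lower in CMP than in LSK.

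The members were also compared between CMP and LSK within each genotype. These comparisons share their libraries with the genotype comparisons and are not independent of them. In enhancer-null mice 0 of 40 tested members passed edgeR's test and the share called among all 11263 tested genes was 0%. At an unadjusted p under 0.05, 1 member was higher and 6 lower in CMP, where 3.9% of all genes were higher and 3.02% lower. DESeq2 called 1 member, Ddx58, and 205 of all tested genes. The log2 fold change was negative in 33 of 40 members and in 50.5% of all genes, with a median of -0.69 in the members and -0.01 in all genes. Enhancer-null CMP was lower than enhancer-null LSK without overlap in 12 of 40 members (30.0%, against 9.26% of all genes) and higher in 0, where 7.57% of all genes were higher.

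In wild-type mice 5 members fell in CMP relative to LSK. The test of the difference between the steps is that of the genotype effect between the cell types, in which 0 members passed. They were Ddx58, Rtp4, Oasl2, Iigp1 and Oas3, 5 of 41 members (12.2%), where 4.22% of all 12026 tested genes passed and 2.06% passed as lower. The log2 fold change was negative in 38 of the 41 members and in 50.3% of all genes, with a median of -1.28 in the members and -0.01 in all genes. Wild-type CMP was lower than wild-type LSK without overlap in 27 members (65.9%, against 17.4% of all genes) and higher in 1, Isg20, where 15.9% of all genes were higher. At an unadjusted p under 0.05, 1 member was higher and 20 lower, where 10.4% of all genes were higher and 10.1% lower. Without wild-type LSK replicate 6 the median was -1.01, and 37 members were negative. The direction was the same in every alternative that gave a value for 38 of the 41 members. The number of members called as lower was 1, 0 and 3 without wild-type CMP replicates 1, 6 and 8, and 2, 6 and 3 without wild-type LSK replicates 1, 6 and 8. DESeq2 called 17 members, all as lower, and called 1605 of all tested genes.

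Ddx58 had the smallest p of the members in this step. It had 17.2, 33.9 and 15 CPM in enhancer-null CMP and 114, 135 and 89.9 CPM in enhancer-null LSK. It had 13.3, 16.7 and 21.8 CPM in wild-type CMP and 90.05, 168 and 149.7 CPM in wild-type LSK. In both genotypes every CMP library was far below every LSK library. The log2 fold change was -2.34 in enhancer-null mice (SE 0.42, adjusted p = 0.242) and -2.93 in the wild type (SE 0.35, adjusted p = 0.00977). The wild-type call held in 11 of 12 alternatives and was lost without wild-type CMP replicate 6 (adjusted p = 0.0544).

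Rtp4 and Oasl2 followed, with the values by library given above. In enhancer-null mice Rtp4 averaged 52.7 ± 20.4 CPM in CMP and 119 ± 22.1 CPM in LSK (SD, n = 3 each; log2 fold change -1.17, SE 0.35, adjusted p = 0.522). It averaged 23.3 ± 10.4 CPM in wild-type CMP and 153 ± 40 CPM in wild-type LSK (SD, n = 3 each; log2 fold change -2.67, SE 0.40, adjusted p = 0.0175). Its call held in 10 of 12 alternatives and was lost without wild-type CMP replicate 1 (adjusted p = 0.0555) or 6 (0.0883). Oasl2 averaged 20.8 ± 8.47 CPM in wild-type CMP and 113 ± 20.3 CPM in wild-type LSK (SD, n = 3 each; log2 fold change -2.39, SE 0.37, adjusted p = 0.0186), a call that held in 7 of 12 alternatives. It was lost without wild-type CMP replicate 1 (adjusted p = 0.0598) or 6 (0.0937) and without wild-type LSK replicate 1 (0.0516) or 8 (0.0508).

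Iigp1 and Oas3 were called in 6 of 12 alternatives each. Iigp1 averaged 6.29 ± 2.84 CPM in wild-type CMP and 62.1 ± 21.9 CPM in wild-type LSK (SD, n = 3 each; log2 fold change -3.25, SE 0.53, adjusted p = 0.0218). In 1 fit of all 12 libraries its adjusted p was 0.104. Without 1 library it was 0.0675, 0.079 and 0.0909 for wild-type CMP replicates 1, 6 and 8 and 0.071 for wild-type LSK replicate 1. Oas3 averaged 6.84 ± 1.18 CPM in wild-type CMP and 48.6 ± 31.7 CPM in wild-type LSK (SD, n = 3 each; log2 fold change -2.78, SE 0.57, adjusted p = 0.0427). Without 1 library its adjusted p was 0.161, 0.144 and 0.15 for wild-type CMP replicates 1, 6 and 8, and 0.0648 and 0.0698 for wild-type LSK replicates 1 and 8. The neighbours Oas2 and Oas1a differed in size, with log2 fold changes of -4.39 (adjusted p = 0.129) and -0.41 (adjusted p = 0.665), and neither passed.

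By class, all 5 RNA sensors, all 7 GTPases, all 4 PARP and Dtx3l genes, all 4 Mx and membrane factors and all 5 other induced genes had negative log2 fold changes in the wild-type step. The 3 positive members were Isg20, an exonuclease (0.87, adjusted p = 0.239), Oasl1 (0.71, adjusted p = 0.817) and Trim25 (0.06, adjusted p = 0.926). The class medians ran from -0.72 in the PARP and Dtx3l genes to -2.39 in the oligoadenylate synthetase family. Gbp3 and Bst2, which were lower in enhancer-null CMP, were nearly level between wild-type CMP and wild-type LSK, at -0.29 (SE 0.42, adjusted p = 0.757) and -0.08 (SE 0.31, adjusted p = 0.918). Gbp3 was at 0.33 without wild-type LSK replicate 6, Bst2 at 0.09 without wild-type CMP replicate 8 and 0.16 without wild-type LSK replicate 8, and Trim25 at -0.12 without wild-type LSK replicate 8. Usp18 was at 0.16 in the enhancer-null step (SE 0.32, adjusted p = 0.977) and at -1.35 in the wild-type step (SE 0.37, adjusted p = 0.096), and the enhancer-null value was -0.06 without enhancer-null LSK replicate 1. Its level in enhancer-null CMP, 87.8 ± 8.61 CPM, was the highest group mean. In LSK it averaged 78.8 ± 28.1 CPM in enhancer-null and 53.3 ± 12.4 CPM in wild-type mice (SD, n = 3 each). Enhancer-null LSK replicate 2, at 109 CPM, lay above the enhancer-null CMP libraries, which ran from 78.3 to 95.1 CPM. The other LSK libraries, at 41.9 to 74.1 CPM, lay below all of them.

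**Figure D5:**
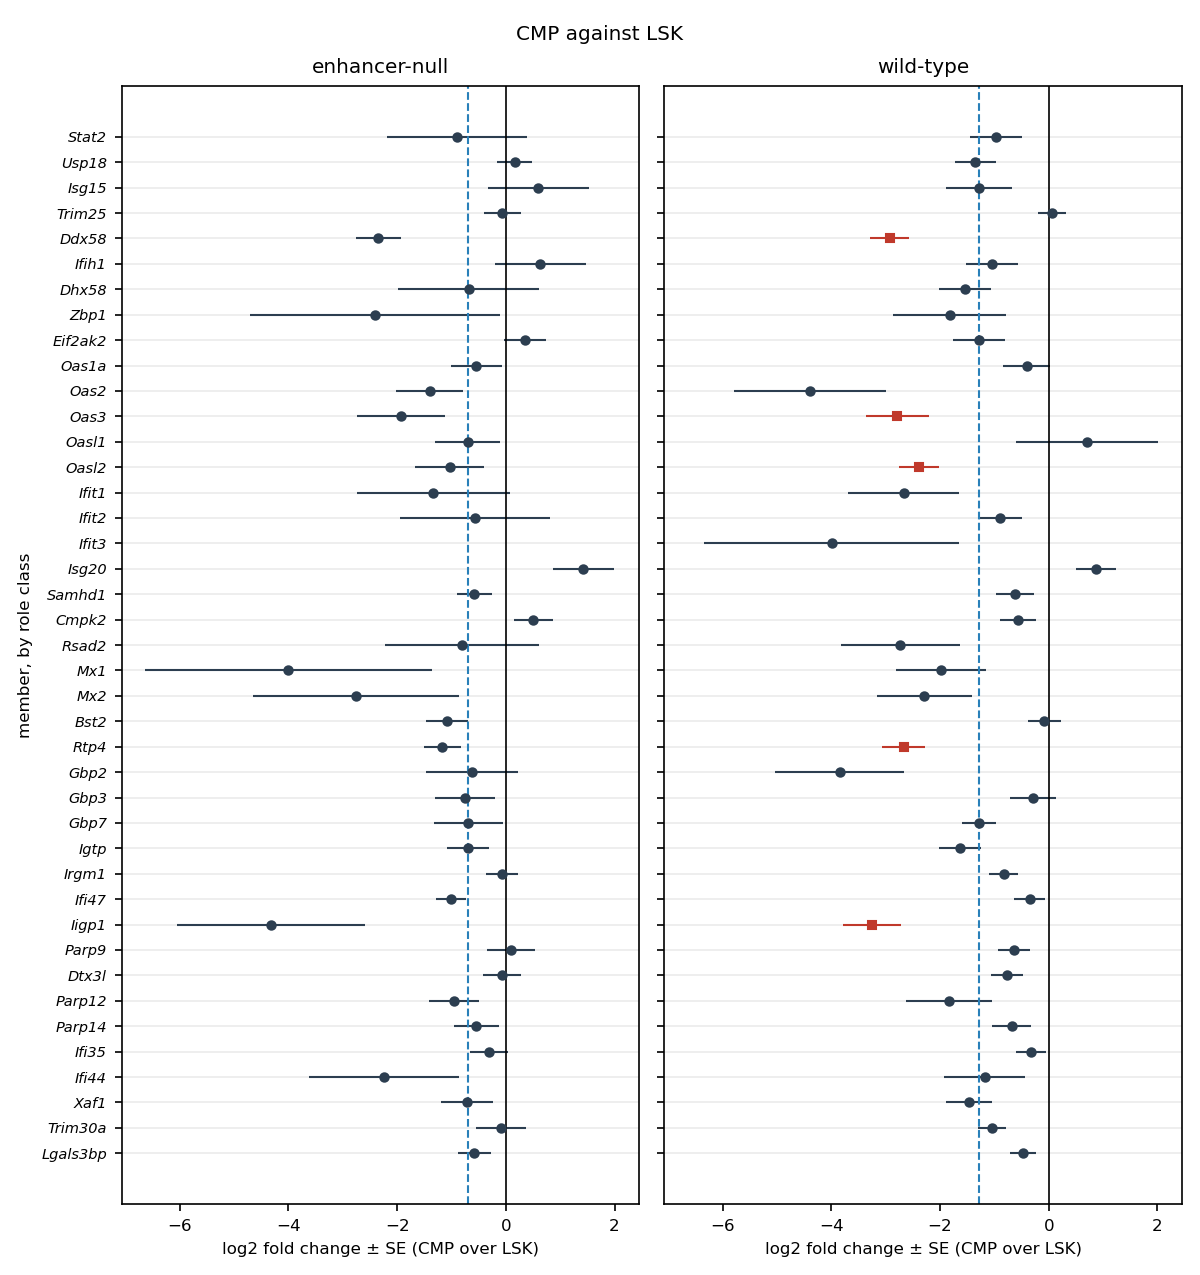
Log2 fold change of CMP over LSK with its SE for each member in enhancer-null (left) and wild-type (right) mice. The 5 red squares are the members past the test, all in the wild type, and the dashed lines are the medians of the tested members, -0.69 in enhancer-null and -1.28 in wild-type mice.

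Marker genes of other cells were read in the same comparisons, without a test. In CMP, 6 monocyte and macrophage markers, with the sums given above, all had the lower mean in the enhancer-null libraries, and Adgre1 was at 0 counts there. The 6 neutrophil markers likewise all had the lower mean, with sums of 3.69 to 24.6 CPM in enhancer-null CMP and 25.9 to 1952 CPM in wild-type CMP. Replicate 1 was the highest wild-type CMP library for each of them, and the median wild-type sum was 221 CPM. In wild-type CMP replicate 8, Ngp, Camp and Ltf were at 0.259, 0.0647 and 0 CPM, within the range of the enhancer-null CMP libraries. The 5 mast cell and basophil markers summed to 931 to 1344 CPM in enhancer-null CMP and 42.7 to 237 CPM in wild-type CMP. That sum was carried by Cpa3 (1103 against 41.7 CPM), and Fcer1a also had the higher mean (14.4 against 0.13 CPM). Mcpt8 (6.57 against 18.6 CPM), Ms4a2 (5.68 against 10 CPM) and Prss34 (0 against 37.8 CPM) had the lower mean in enhancer-null CMP. In wild-type CMP replicates 1, 6 and 8, Prss34 was at 113, 0.39 and 0 CPM and Mcpt8 at 46.4, 8.58 and 0.91 CPM. Replicate 1 thus carried most of both wild-type means. Of 6 T and NK cell markers, Nkg7 averaged 260 CPM in enhancer-null CMP and 84.9 CPM in wild-type CMP, and the other 5, Cd3e, Cd3g, Cd8a, Klrb1c and Ncr1, averaged at most 0.229 CPM in enhancer-null CMP and 1.58 CPM in wild-type CMP. In LSK, the neutrophil markers were all lower in mean, with sums of 6.84 to 26.5 CPM in the enhancer-null and 121 to 1249 CPM in the wild-type libraries. Replicate 1 was again the highest wild-type library for each of them. Cpa3 averaged 480.5 CPM in the enhancer-null and 8.05 CPM in the wild-type LSK libraries. Across the wild-type step, the 5 stem cell markers were all lower in CMP, with sums of 19.3 to 22.1 CPM in CMP and 558 to 722 CPM in LSK. Of 6 erythroid markers, 5 had the higher mean in wild-type CMP and Hba-a1 had 0 counts. The erythroid sums were 4226 to 4707 CPM in wild-type CMP and 1384 to 1685 CPM in wild-type LSK. All 6 neutrophil markers, with overlapping sums, and 4 of 6 monocyte and macrophage markers also had the higher mean in wild-type CMP. The part of these markers' cell types in the members' differences was not tested.

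The rest of the pathway was read from a list of 50 genes. None of the 8 interferon genes reached a testable level. Ifna1, Ifna4 and Ifnl3 had 0 counts, Ifna2 and Ifnl2 had 1 count in all 12 libraries together, Ifnk had 5 counts in 2 libraries, Ifng 20 counts in 2 libraries, and Ifnb1 38 counts in 4 libraries, with at most 1.58 CPM in wild-type LSK replicate 8. In CMP 38 of the 50 were tested, Socs3 rose, Unc93b1 fell and 36 did not pass, where 0.58% of all genes passed, with a median log2 fold change of 0.11. DESeq2 called 7 of the list in CMP, and 628 of all tested genes. Socs3, Jak1, Jak2 and Stat3 had the higher mean in enhancer-null CMP, and Unc93b1, Ifngr2 and Il10rb the lower mean. In LSK 38 were tested and 0 passed edgeR's test, where 0.103% of all genes passed, with 5 higher and 1 lower at an unadjusted p under 0.05. There DESeq2 called 1, Socs3, and 269 of all tested genes.

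Of the type I receptor chains, Ifnar1 averaged 85.8 ± 56.1 CPM in enhancer-null CMP and 66.7 ± 11.4 CPM in wild-type CMP (SD, n = 3 each; adjusted p = 0.839). Ifnar2 averaged 202 ± 75.9 CPM in enhancer-null CMP and 165 ± 47.3 CPM in wild-type CMP (SD, n = 3 each; adjusted p = 0.806). The chains of the interferon gamma receptor were unlike each other. Ifngr1 averaged 143 ± 25.1 CPM in enhancer-null CMP and 141 ± 13 CPM in wild-type CMP (adjusted p = 0.975). Ifngr2 had 0.231, 7.2 and 4.98 CPM in enhancer-null CMP and 62.9, 44.7 and 20.2 CPM in wild-type CMP, lower without overlap (log2 fold change -3.33, SE 1.10, adjusted p = 0.274, and past the threshold by DESeq2). It had 47.8, 16.1 and 12.8 CPM in enhancer-null LSK and 40.6, 12.9 and 38.5 CPM in wild-type LSK (adjusted p = 0.956). In LSK, Ifnar2 had 248, 273 and 197 CPM in enhancer-null and 144, 169.9 and 163 CPM in wild-type libraries, higher without overlap (log2 fold change 0.62, SE 0.19, adjusted p = 0.432).

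Irf9, a partner of Stat2 in the complex that binds the response element, did not pass. It averaged 155 ± 48.3 CPM in enhancer-null CMP and 97.4 ± 12 CPM in wild-type CMP (adjusted p = 0.394), and 135 ± 3.22 CPM in enhancer-null LSK and 134 ± 65 CPM in wild-type LSK (adjusted p = 0.991).

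Socs3, a feedback inhibitor of cytokine receptors that are coupled to Jak kinases, had 296, 233 and 247 CPM in enhancer-null CMP and 9.14, 9.31 and 3.43 CPM in wild-type CMP (log2 fold change 5.16, SE 0.43, adjusted p = 0.00619). It was called in 12 of 12 alternatives. In LSK it had 496, 596 and 540.3 CPM in enhancer-null and 70.2, 11 and 119 CPM in wild-type libraries, without overlap and without passing the test (log2 fold change 3.05, SE 0.72, adjusted p = 0.28). Unc93b1, which carries the nucleic acid-sensing Toll-like receptors to endosomes, had 38, 39.3 and 66.7 CPM in enhancer-null CMP and 281, 285 and 215 CPM in wild-type CMP (log2 fold change -2.43, SE 0.29, adjusted p = 0.0193), a call that held in 8 of 12 alternatives. It was lost without enhancer-null CMP replicate 2 (adjusted p = 0.0514) and without wild-type CMP replicate 1 (0.0896), 6 (0.112) or 8 (0.0923). In LSK the groups overlapped, at 141, 93.7 and 104 CPM in enhancer-null and 117, 91.8 and 124 CPM in wild-type libraries (adjusted p = 0.973), and the genotype effect differed between the cell types (log2 fold change -2.44, SE 0.38, adjusted p = 0.0184). In the wild-type step Irf1, an interferon-induced transcription factor, fell in CMP (log2 fold change -1.67, SE 0.35, adjusted p = 0.0429), Unc93b1 rose (log2 fold change 1.28, SE 0.20, adjusted p = 0.0182) and 37 of 39 tested genes of the list did not pass, where 4.22% of all genes passed. DESeq2 called 7 in this step, Irf1, Unc93b1, Jak1, Rnaseh2c, Socs3, Stat3 and Tlr4, where it called 1605 of all tested genes. The Irf1 call held in 6 of 12 alternatives and was lost without wild-type CMP replicate 1 (adjusted p = 0.125), 6 (0.127) or 8 (0.16) and wild-type LSK replicate 1 (0.073) or 8 (0.0599). The Unc93b1 call held in 7 of 12 and was lost without wild-type CMP replicate 1 (0.086), 6 (0.0978) or 8 (0.0595) or wild-type LSK replicate 1 (0.0623). In the enhancer-null step 0 of 38 passed edgeR's test, with 0 higher and 3 lower at an unadjusted p under 0.05. DESeq2 called 1 in that step, Socs3, and 205 of all tested genes.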

How the data were processed

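RNA was extracted with carrier, amplified with a low-input kit and sequenced as paired 75-base reads, per the labels' protocols. The values used are raw read counts per gene symbol as deposited by the authors, 1 file per library; TopHat2 2.0.4, Bowtie, HTSeq and the build mm10 are named in the submitters' processing notes, with annotation, counting mode and use of strand not given in the sources used here. Amplification used no molecular identifiers, so floors (3 counts, or 0.061 to 0.486 CPM per library) cover counting error only. Rows that name no gene, 37.2% to 46.9% of all counts per library, were left out.

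Of the 12 files, 11 list 24420 symbols and wild-type CMP replicate 6 lists 23456. Identical symbols (22779) and symbols linked through older names (599) gave 23378 genes, and the symbols left out held 0.0805% to 0.317% of gene counts. Each comparison was tested with edgeR 4.0.16 under R 4.3.3 (quasi-likelihood test, robust fit, TMM scaling, filterByExpr with a minimum count of 10), with Benjamini-Hochberg adjustment over all tested genes and a threshold of 0.05, and the code was tested on simulated data. SE is the log2 fold change divided by the square root of F. Levels are CPM with TMM scaling over the 12 libraries. Alternatives were DESeq2 1.42.0, its size factors, no filter, 1 fit of all 12 libraries, identical symbols only, a sex covariate, a replicate block and leaving out each library. No 2 files were identical, and libraries of a group differed far beyond sampling noise (chi-square per degree of freedom 43.2 to 184).

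The members, lists and tests were chosen with earlier results of these data known. Values in every library were given for members past the threshold in any comparison, the 5 with the smallest p in each genotype comparison, the member with the highest mean CPM in each role class, and members without overlap in both cell types. Stat2, Isg15, Zbp1, Oas1a, Oas2, Oasl1, Ifit1, Ifit3, Isg20, Mx1, Gbp7 and Irf1 were named after their values were seen, and 1 gene of the pathway list is not reported here. Gene positions are from GENCODE vM21 and promoter windows from RefSeq.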

Additional observations from a re-analysis of the deposited data

Results flagged for a closer look

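The genotype effect on Unc93b1, the carrier of the nucleic acid-sensing Toll-like receptors, differed between CMP and LSK by -2.44 on the log2 scale in the test of that difference itself (quasi-likelihood test of edgeR, Benjamini-Hochberg adjustment over all tested genes, SE 0.38, adjusted p = 0.0184). Its effect was -2.43 in CMP and 0.05 in LSK. The call held in 14 of 18 alternatives, with an adjusted p from 8.79e-07 to 0.107. It was lost without wild-type CMP replicate 1 (adjusted p = 0.0526), wild-type CMP replicate 6 (0.0758) or enhancer-null LSK replicate 1 (0.0549), and with the replicate block (0.107). Monocyte and macrophage markers summed to 18.1 to 77.2 CPM in enhancer-null CMP and 920 to 1147 CPM in wild-type CMP, and their part in this difference was not tested.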

How the results depend on the processing

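The 11 differences past the threshold that the text names kept their direction under every alternative run, while 20 of the 79 named differences changed it under at least 1, all of them not past the threshold. Without 1 library, the log2 fold change in CMP ran from -0.091 to 0.57 for Ddx58, -0.30 to 0.71 for Ifnar1, -0.057 to 0.51 for Ifnar2, -0.14 to 0.12 for Ifngr1 (-0.023 with the sex covariate), -0.075 to 0.38 for Lgals3bp, -0.24 to 0.36 for Oas3, -0.19 to 1.25 for Oasl2, -0.30 to 0.70 for Stat2, -0.031 to 0.51 for Trim25 and -0.31 to 0.32 for Trim30a. In LSK it ran from -0.075 to 0.33 for Dtx3l, -0.65 to 0.13 for Eif2ak2, -1.06 to 0.077 for Ifngr2, -0.32 to 0.37 for Irf9 (-9.1e-05 with all 12 libraries in 1 fit), -0.41 to 0.090 for Irgm1 and -0.14 to 0.17 for Unc93b1 (-0.0018 with the sex covariate). In the enhancer-null step it ran from -0.058 to 0.49 for Usp18, and in the wild-type step from -0.37 to 0.16 for Bst2, -0.53 to 0.33 for Gbp3 and -0.12 to 0.20 for Trim25. The levels of the 41 members and their sums moved by less than 1 SD without TMM scaling. The number of genes called in CMP was 68, against 269 with no filter, 628 with DESeq2, 232 with all 12 libraries in 1 fit, 31 with the sex covariate and 7 to 91 without 1 library; the members called were 1, against 2 with DESeq2, 0 with the sex covariate and 0 to 1 without 1 library. In LSK, 12 genes were called, against 39 with no filter, 269 with DESeq2, 26 with all 12 libraries, 3 with the sex covariate and 1 to 21 without 1 library, and DESeq2 called 1 member where the main test called 0. For the difference between cell types, 37 genes were called, against 68 with no filter, 191 with DESeq2 and 12 to 125 without 1 library. In the enhancer-null step 0 genes were called, against 9 with no filter, 205 with DESeq2 (1 member) and 37 with all 12 libraries (1 member). In the wild-type step 507 genes were called, against 1605 with DESeq2 and 54 to 877 without 1 library, and 5 members, against 8 with no filter, 17 with DESeq2 and 0 to 6 without 1 library. The cause of these shifts was not tested. Of the genes called in CMP, 80.9% were higher in enhancer-null libraries by the main test and 64.3% by DESeq2. With no filter the median of all genes moved to -0.38 in CMP, -0.25 for the difference between cell types and 0.26 in the wild-type step. The labels give CMP and LSK the same replicate numbers, but same-numbered libraries did not all deviate together (correlations of -0.107 to 0.163). For different numbers of the same genotype the correlations ran from -0.202 to 0.187, a range that encloses the former. With the replicate block, 7 genes were called for the difference between cell types, 132 genes and 2 members in the wild-type step, and 0 in the enhancer-null step, and the block ended the wild-type step calls of Oasl2 (adjusted p = 0.0501), Iigp1 (0.0635), Oas3 (0.0953), Irf1 (0.0656) and Unc93b1 (0.0694). The interferon response element letters stood in 41.9% of the members in the stricter form GAAACNGAA, against 61.3% in the main form. Among all genes with a window the shares were 2.15% and 9.76%. Members at 3 counts or fewer have little precision. Their number was 8 and 6 in enhancer-null CMP replicates 1 and 7, and 3 in enhancer-null LSK replicate 2, which had the fewest counts. It was 3 in wild-type CMP replicate 8, 2 in wild-type LSK replicate 6 and 1 in enhancer-null LSK replicate 1. All of these libraries had at most 16843626 gene counts, and every deeper library had 0 such members. Among the shallower libraries the number did not follow depth closely, and wild-type LSK replicate 8, with 15401802 gene counts, had 0.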
